A study of Homo sapiens with 6 samples.

Results

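Glycolysis and hypoxia response genes were compared between ONS-76 cells with and without knockdown of KDM1A, to ask whether loss of this histone demethylase altered the RNA of genes that handle glucose or answer to low oxygen. The set has 38 genes with textbook roles, chosen with earlier results of these data known. It holds 15 glycolytic enzymes, 3 glucose or lactate transporters and 3 regulatory kinases. It also holds 6 genes for the alpha subunits of hypoxia inducible factor (HIF) and their oxygen-dependent regulators, and 11 hypoxia response targets. On the arrays, 36 of the 38 genes had at least 1 probe set that names them and no other gene, 83 probe sets in all, out of 19775 genes with such a probe set. The transporter SLC16A3 and the carbonic anhydrase CA9 had none and were not analysed here. Of several probe sets of a gene, the brightest on average stands for the gene unless another is mentioned.

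The cells, ONS-76, are an established line grown from a human medulloblastoma, a malignant tumor of the cerebellum. Of 6 Affymetrix U133 Plus 2.0 arrays, 3 hold RNA of cells given an siRNA against KDM1A (siKDM1A) and 3 that of mock transfected cells, which saw the reagent without siRNA (control). The sample labels name the siRNA target KDM5A, with LSD1, an alias of KDM1A, beside it, and they give 48 h between transfection and harvest, whereas the text of the paper places the RNA later. Because the control cells took up no siRNA, loss of KDM1A and siRNA delivery cannot be told apart in any difference below, and all arrays come from 1 cell line.

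The knockdown was visible at the RNA level. KDM1A averaged 9.52 ± 0.0443 (SD, n = 3) on the log2 scale in control and 6.30 ± 0.0483 in siKDM1A cells, a log2 change of -3.22 (limma adjusted p = 7.12e-07), while KDM5A changed by -0.27 and did not pass the test (limma adjusted p = 0.138). Array medians lay between 5.09 and 5.16, array lower quartiles between 3.63 and 3.70, and no array repeated the values of another. Of 8 neural markers TUBB3 and SOX2 were bright in control cells (means 11.8 and 10.7) and MAP2 lay at 6.22. NES, GFAP and ATOH1, at 5.39, 5.18 and 4.96, lay near the array medians. SYP, at 4.90, was below every array's median and OTX2 lay under the lower quartile on each array. The mesenchymal genes VIM, CDH2, FN1 and COL1A1 read 13.0, 11.6, 10.00 and 7.37. Of 3 measured leukocyte markers PTPRC and CD14 were below every array's median and CD3E, at 5.32, was not. Of the epithelial genes EPCAM was under the lower quartile on each array and CDH1, at 5.83, was above every median. The endothelial genes PECAM1, CDH5 and VWF read 6.59, 7.58 and 5.15 in control cells. Among the neural genes MAP2 rose by 1.12 log2 units and SOX2 fell by 0.43 (limma adjusted p = 0.000295 and 0.0476). Of 3 endothelial markers PECAM1 rose by 0.35 (limma adjusted p = 0.0349), while CDH5 and VWF differed by -0.34 and 0.08 and did not pass (limma adjusted p = 0.202 and 0.711). The part of these shifts in the results below was not tested, and in bulk RNA fewer cells that express a gene and less RNA of it per cell cannot be told apart.

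Glycolysis breaks glucose down to pyruvate, and lactate dehydrogenase converts pyruvate to lactate when respiration is limited or, in many tumors, even when oxygen is present. HIF is a pair of a regulated alpha subunit (HIF1A or EPAS1) and a stable partner, ARNT. With oxygen, the prolyl hydroxylases EGLN1 and EGLN3 mark the alpha subunit and the VHL protein targets it for degradation, while HIF1AN, an asparaginyl hydroxylase, blocks its coactivator contact. Without oxygen the alpha subunit accumulates and HIF binds a short DNA core in the control regions of glucose transporter, glycolytic and angiogenic genes. HIF is therefore controlled mainly as a protein. KDM1A has been described as a stabilizer of the HIF1A protein, and protein was not measured on these arrays.

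RefSeq promoter windows (GRCh38.p14, 250 bases before to 50 bases after a transcription start, 300 bases in all) were searched for the HIF core, written ACGTG or GCGTG, on both strands. Of the 36 measured genes 31 were matched to 54 windows by symbol. The others were SLC2A3, VHL, BNIP3L, NDRG1 and HILPDA. The core was present in 35 of the 54 windows (64.8%), beside 48.4% of all 35114 windows in the table, and in at least 1 window of 27 of the 31 genes (87.1%), beside 52.4% of all 27303 genes with a window. The genes of the set have more windows each, 54 for 31 genes beside 35114 for 27303, so the share per gene is not on equal terms. Since ACGTG lies inside the E-box CACGTG, a site of MYC and of BHLHE40 itself, that letter string was counted separately and was found in 8 of the 54 windows (14.8%), beside 7.26% of all windows. Of the 27 genes with a core, 3 passed the test of expression described below and 24 did not. HK2 and BHLHE40 rose and CA12 fell, beside 3.45% of all 19775 genes that rose and 5.46% that fell. The share among all genes with a core was not counted. A match is a run of letters and not a measured binding site. The windows of BHLHE40, CA12 and P4HA1 are shown because these were the hypoxia target genes with the smallest limma p among those with a core. The windows of HK2 and LDHA were added after their values were seen, as a pair of glycolytic genes, of which HK2 passed the test and LDHA did not. Both have 2 windows with the core, and the one with more matches is shown. Capitals mark the core on either strand, so that CACGT and CACGC are cores of the opposite strand. The regions are chr3:4979187-4979486 (plus strand) for BHLHE40, chr15:63381797-63382096 (minus) for CA12, chr10:73096817-73097116 (minus) for P4HA1, chr2:74834920-74835219 (plus) for HK2 and chr11:18394313-18394612 (plus) for LDHA, each written in the direction of the gene.
BHLHE40: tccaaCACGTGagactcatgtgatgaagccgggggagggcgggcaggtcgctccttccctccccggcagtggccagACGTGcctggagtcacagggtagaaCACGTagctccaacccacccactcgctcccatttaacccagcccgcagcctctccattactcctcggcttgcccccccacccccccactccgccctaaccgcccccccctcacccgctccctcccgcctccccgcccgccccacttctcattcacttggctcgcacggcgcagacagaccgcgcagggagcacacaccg
CA12: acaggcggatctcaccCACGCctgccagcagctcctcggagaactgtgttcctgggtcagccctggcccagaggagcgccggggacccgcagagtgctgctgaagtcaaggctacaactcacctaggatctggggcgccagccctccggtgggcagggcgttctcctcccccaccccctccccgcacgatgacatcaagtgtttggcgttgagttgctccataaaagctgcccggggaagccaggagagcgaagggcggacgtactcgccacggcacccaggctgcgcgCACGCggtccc
P4HA1: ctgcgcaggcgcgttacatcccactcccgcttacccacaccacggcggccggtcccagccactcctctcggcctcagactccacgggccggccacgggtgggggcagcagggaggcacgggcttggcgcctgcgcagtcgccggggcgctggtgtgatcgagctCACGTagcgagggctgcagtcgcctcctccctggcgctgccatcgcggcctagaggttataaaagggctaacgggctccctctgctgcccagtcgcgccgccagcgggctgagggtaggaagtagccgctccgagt
HK2: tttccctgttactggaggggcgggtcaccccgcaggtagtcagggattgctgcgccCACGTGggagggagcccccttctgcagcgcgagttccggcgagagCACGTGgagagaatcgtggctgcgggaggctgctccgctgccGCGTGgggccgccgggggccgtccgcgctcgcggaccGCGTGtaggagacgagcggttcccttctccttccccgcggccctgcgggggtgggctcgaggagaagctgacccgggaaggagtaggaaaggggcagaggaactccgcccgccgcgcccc
LDHA: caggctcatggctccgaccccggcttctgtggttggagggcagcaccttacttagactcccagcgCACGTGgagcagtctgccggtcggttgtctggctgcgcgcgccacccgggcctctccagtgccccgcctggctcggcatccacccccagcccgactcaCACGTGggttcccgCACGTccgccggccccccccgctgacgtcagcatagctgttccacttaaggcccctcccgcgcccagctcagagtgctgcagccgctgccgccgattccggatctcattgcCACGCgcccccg
BHLHE40 had 4 matches over both strands, a CACGTG at -245 among them, counted from the transcription start. Each CACGTG reads the same on both strands and counts as 2 matches. The CA12 window had 2, at -234 and 40, and the P4HA1 window had 1 at -86. The windows shown for HK2 and LDHA had 6 each, with 2 CACGTG strings in either.

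Few of the genes moved. Of the 36 genes, 3 rose (SLC2A3, HK2 and BHLHE40), 2 fell (NDRG1 and CA12) and 31 did not pass the test (limma with Benjamini-Hochberg adjustment over 54613 probe sets, threshold 0.05). The shares, 8.33% higher and 5.56% lower, stand beside 3.45% and 5.46% of all 19775 genes. The median log2 change of the 36 genes was 0.021 (-0.0070 after centring on array medians), beside 0.0069 for all genes, and 19 changes were above 0 and 17 below. Every siKDM1A array lay above every control array for 7 genes (19.4%, beside 13.5% of all genes) and below for 8 genes (22.2%, beside 18.1%). For 28 of the 31 genes that did not pass, the 95% interval of the difference lay within 1.5-fold in either direction; the others were ALDOC, PKM and PDK1.

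**Figure D1:**
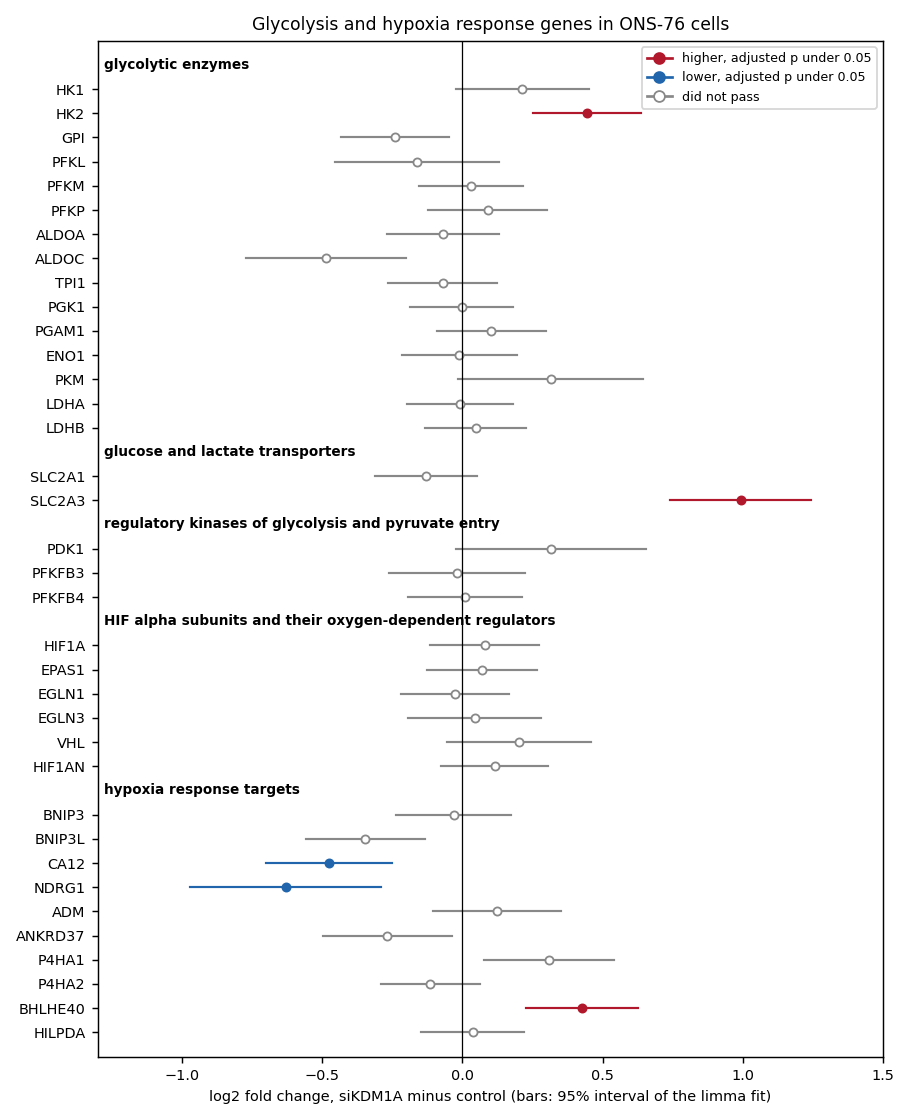
Difference in log2 value (x axis, siKDM1A minus control) of the 36 measured glycolysis and hypoxia response genes, grouped by role; points are limma estimates from 3 arrays per group and bars are 95% intervals. Filled red points mark the 3 genes that rose, filled blue points the 2 that fell, and open points the 31 that did not pass; SLC2A3 stands farthest to the right at 0.99 and NDRG1 farthest to the left at -0.63.

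SLC2A3 had the largest change of the 36 genes. It encodes GLUT3, the high-affinity glucose transporter of neurons, which many tumors also use. Its log2 values were 5.98, 6.03 and 5.80 on control arrays a, b and c and 6.85, 6.80 and 7.13 on siKDM1A arrays a, b and c. All siKDM1A arrays were higher than all control arrays. The mean rose from 5.93 ± 0.121 to 6.93 ± 0.176 (SD, n = 3 each), a log2 change of 0.99 (SE 0.112, 95% interval 0.74 to 1.25) or 1.99-fold (limma adjusted p = 0.00136). Both further probe sets of SLC2A3 rose as well, by 1.86 and 1.28 log2 units (limma adjusted p = 3.88e-05 and 0.00365). The paper, from these same arrays, already lists SLC2A3 among its genes that rose 3-fold or more. Its entry is for the probe set that rose by 1.86 log2 units here (3.62-fold), not for the brightest one. SLC2A14, a close paralog, shares probe sets with SLC2A3 on this array, and the 2 that name both genes rose by 0.80 and 1.56 (limma adjusted p = 0.0185 and 0.000172), so hybridization of SLC2A14 RNA to SLC2A3 probes cannot be told apart from SLC2A3 RNA. SLC2A1, the GLUT1 transporter found in most cells and a standard HIF target, did not pass the test. Its control arrays read 8.02, 8.03 and 8.05 and its siKDM1A arrays 7.84, 7.92 and 7.94, a log2 difference of -0.13 (95% interval -0.31 to 0.05, limma adjusted p = 0.448), although the groups did not overlap. Measured on each array as the difference between the paralogs, the change of SLC2A3 exceeded that of SLC2A1 by 1.12, with siKDM1A arrays between 0.98 and 1.28 and control arrays between -0.15 and 0.10 around the control mean. This pair, like the other paralog pairs below, was set side by side after the values were seen and carries no test.

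**Figure D2:**
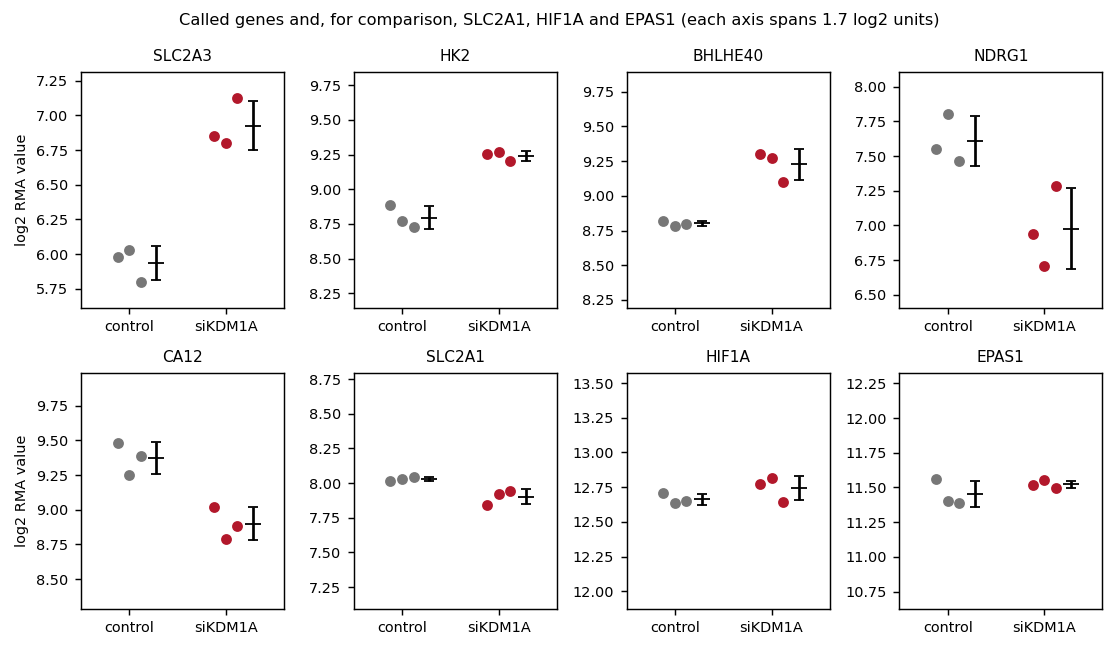
Log2 RMA value (y axis, each panel spanning the same number of log2 units) of the 5 genes that passed the test and of SLC2A1, HIF1A and EPAS1 in control cells (grey, 3 arrays) and siKDM1A cells (red, 3 arrays), in the order a, b, c; bars are mean ± SD. The groups are apart for SLC2A3, HK2, BHLHE40, NDRG1, CA12 and, by a small distance, SLC2A1, and overlap for HIF1A and EPAS1.

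Of the 15 glycolytic enzymes 1 rose (6.67%, beside 3.45% of all genes), 0 fell (0%, beside 5.46%) and 14 did not pass, with a median log2 change of -0.0028. The gene that rose was HK2, the inducible hexokinase, which traps glucose in the cell by phosphorylation at the first step of the pathway. HK2 read 8.89, 8.77 and 8.73 on the control arrays and 9.25, 9.27 and 9.20 on the siKDM1A arrays. The groups did not overlap, and the siKDM1A arrays lay close together. The mean rose from 8.80 ± 0.0846 to 9.24 ± 0.0338 (SD, n = 3 each), a log2 change of 0.45 (SE 0.0852, 95% interval 0.25 to 0.64) or 1.36-fold (limma adjusted p = 0.0166). The other 2 HK2 probe sets gave 0.20 and 0.10 on the log2 scale and did not pass (limma adjusted p = 0.301 and 0.646). HK1, the constitutive hexokinase, was higher on every siKDM1A array, by 0.21 in the mean, and did not pass (limma adjusted p = 0.322).

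Beyond the hexokinase step no enzyme passed. GPI, which isomerizes glucose 6-phosphate, was lower on every siKDM1A array (log2 difference -0.24, 95% interval -0.43 to -0.05, limma adjusted p = 0.159). The phosphofructokinase genes PFKL, PFKM and PFKP, whose products commit sugar to glycolysis, differed by -0.16, 0.03 and 0.09. ALDOC, the brain-type aldolase, was nearest to the threshold: it read 7.66, 7.92 and 7.89 in control and 7.16, 7.26 and 7.59 in siKDM1A cells, without overlap (log2 difference -0.49, 95% interval -0.77 to -0.20, limma adjusted p = 0.0575). Its ubiquitous paralog ALDOA differed by -0.07 (95% interval -0.27 to 0.13), and the change of ALDOC was lower than that of ALDOA by 0.42 on the log2 scale. The abundant enzymes of the lower pathway stayed within narrow intervals: TPI1 -0.07, PGK1 -0.0028, PGAM1 0.10 and ENO1 -0.01, each with a 95% interval within 0.30 log2 units of 0. The lactate dehydrogenase genes LDHA and LDHB, which interconvert pyruvate and lactate, differed by -0.01 (95% interval -0.20 to 0.18) and 0.05 (-0.13 to 0.23). PKM, the pyruvate kinase gene, was higher on every siKDM1A array by 0.31 in the mean, but the spread was wide, with siKDM1A arrays a and b at 9.73 and 9.69 and array c at 10.26 (95% interval -0.02 to 0.65, limma adjusted p = 0.293).

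None of the 3 regulatory kinases passed, beside 3.45% of all genes that rose and 5.46% that fell. PDK1, a HIF target that encodes a pyruvate dehydrogenase kinase, differed by 0.32 with overlapping groups (95% interval -0.02 to 0.66, limma adjusted p = 0.302). PFKFB3 and PFKFB4, which set the level of the phosphofructokinase activator fructose 2,6-bisphosphate, differed by -0.02 and 0.01 (limma adjusted p = 0.95 and 0.969).

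None of the 6 genes for HIF alpha subunits and their regulators passed the test, beside 3.45% of all genes that rose and 5.46% that fell. HIF1A read 12.71, 12.63 and 12.65 on the control arrays and 12.77, 12.81 and 12.64 on the siKDM1A arrays. These values overlap, and the log2 difference was 0.08 (95% interval -0.11 to 0.27, limma adjusted p = 0.691), so a change above 1.21-fold in either direction lies outside the interval. EPAS1, which encodes HIF2 alpha, read 11.56, 11.41 and 11.39 in control and 11.52, 11.55 and 11.50 in siKDM1A cells (log2 difference 0.07, 95% interval -0.12 to 0.27, limma adjusted p = 0.732). The dimmer EPAS1 probe sets gave 0.26 and -0.14, each without overlap of the groups, and did not pass (limma adjusted p = 0.171 and 0.435). The latter lay under the lower quartile on each array. The hydroxylase genes EGLN1 and EGLN3, the latter also a HIF target, differed by -0.03 (-0.22 to 0.17) and 0.04 (-0.19 to 0.28), with limma adjusted p = 0.912 and 0.873. VHL differed by 0.20 (95% interval -0.06 to 0.46, limma adjusted p = 0.398). HIF1AN was higher on every siKDM1A array, by 0.11 in the mean (95% interval -0.08 to 0.31, limma adjusted p = 0.534).

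Of 10 measured hypoxia response targets 1 rose (10.0%, beside 3.45% of all genes), 2 fell (20.0%, beside 5.46%) and 7 did not pass, with a median log2 change of -0.073. BHLHE40, also known as DEC1, encodes a basic helix-loop-helix repressor of the circadian and hypoxia responses, and it rose. Its log2 values were 8.82, 8.78 and 8.80 in control and 9.31, 9.27 and 9.10 in siKDM1A cells. The control arrays lay within a few hundredths of each other, and array c was the lowest of the siKDM1A arrays. The mean went from 8.80 ± 0.0206 to 9.23 ± 0.109 (SD, n = 3 each), a log2 change of 0.43 (SE 0.0886, 95% interval 0.23 to 0.63) or 1.34-fold (limma adjusted p = 0.0235). The second, dimmer BHLHE40 probe set gave 0.21 with overlapping groups (limma adjusted p = 0.455). As shown above, the BHLHE40 window holds 4 core matches, with its CACGTG counted on both strands, and binding was not measured.

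NDRG1, a stress-responsive gene induced by hypoxia in many cell types, fell the most of the 36 genes. It read 7.55, 7.81 and 7.46 in control and 6.94, 6.71 and 7.29 in siKDM1A cells. The groups did not overlap, but siKDM1A array c came close to the lowest control array. The mean fell from 7.61 ± 0.178 to 6.98 ± 0.293 (SD, n = 3 each), a log2 change of -0.63 (SE 0.152, 95% interval -0.97 to -0.29) or 1.55-fold lower (limma adjusted p = 0.0426). NDRG1 had 1 probe set, so no second reading was at hand.

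CA12, a membrane carbonic anhydrase that helps tumor cells export acid, fell as well. Its control arrays read 9.48, 9.25 and 9.39 and its siKDM1A arrays 9.02, 8.79 and 8.88. The groups were apart. The mean fell from 9.38 ± 0.116 to 8.90 ± 0.118 (SD, n = 3 each), a log2 change of -0.48 (SE 0.100, 95% interval -0.70 to -0.25) or 1.39-fold lower (limma adjusted p = 0.0244). CA12 had 7 probe sets. The next 4 in brightness were also lower on every siKDM1A array, by 0.20 to 0.42 in size, and none of them passed (limma adjusted p between 0.0576 and 0.216). The 2 dimmest gave 0.03 and 0.23 with overlapping groups.

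Among the remaining targets, BNIP3L, a mitophagy receptor, lay at the edge of the test. Its brighter probe set read 10.54, 10.59 and 10.58 in control and 10.34, 10.26 and 10.07 in siKDM1A cells (log2 difference -0.35, limma adjusted p = 0.0667), and its second probe set fell by 0.39 log2 units (limma adjusted p = 0.0352). The paralog BNIP3, a classical HIF target with the same role, differed by -0.03 with overlapping groups (95% interval -0.24 to 0.17). P4HA1, which encodes a catalytic subunit of collagen prolyl 4-hydroxylase, was higher on every siKDM1A array by 0.31 in the mean (95% interval 0.08 to 0.54, limma adjusted p = 0.133). Its paralog P4HA2 was lower on every siKDM1A array by 0.12 in size (95% interval -0.29 to 0.06, limma adjusted p = 0.491), and the 2 changes lay 0.42 apart. ANKRD37, a small ankyrin protein gene induced by HIF1A, was also lower on every siKDM1A array (log2 difference -0.27, limma adjusted p = 0.189). ADM, which encodes the vasodilator adrenomedullin, and HILPDA, which promotes lipid droplet storage in hypoxia, differed by 0.12 and 0.04 with overlapping groups (limma adjusted p = 0.576 and 0.86).

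**Figure D3:**
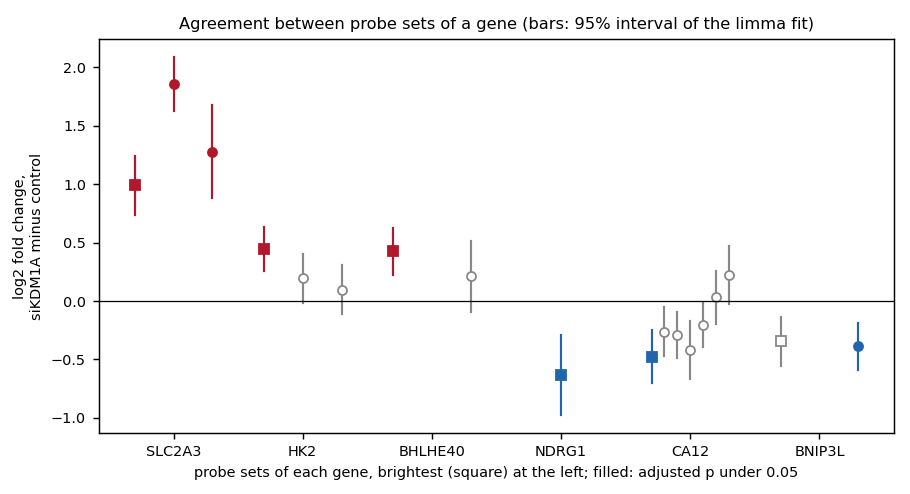
Difference in log2 value (y axis, siKDM1A minus control) of every probe set of the 5 genes that passed and of BNIP3L, with the brightest probe set of each gene as a square at the left; bars are 95% intervals and filled symbols passed the test. All 3 SLC2A3 probe sets rose, 1 of 3 for HK2 and 1 of 2 for BHLHE40 passed, and of 7 CA12 probe sets 1 passed.

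Several genes had more than 1 reading and unequal spread. Of 26 genes with more than 1 probe set, 18 had the same sign of change in all of them, and 5 of all 83 probe sets rose while 3 fell, beside 2.18% and 3.73% of the 54613 probe sets tested. The standard error of the change ranged from 0.0784 for P4HA2 to 0.152 for NDRG1. The SD between arrays was larger in siKDM1A than in control cells for 28 of the 36 genes (77.8%, beside 64.2% of all genes). Median SDs were 0.106 and 0.0584 on the log2 scale, beside 0.12 and 0.0902 for all genes. The siKDM1A array farthest from the median of its group was array c for 17 genes, array a for 12 and array b for 7. Neither this split nor the agreement in sign was counted over all genes. The median deviation of the 36 genes from their control mean was -0.01 on siKDM1A array a, 0.06 on b and 0.01 on c.

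Genes of the same pathways that are not in the set were counted from 4 lists, to be read beside the 3.45% of all genes that rose and the 5.46% that fell. Of 34 measured other genes of glycolysis and pyruvate handling, 1 rose and 1 fell (2.94% each) and 32 did not pass, with a median log2 change of 0.03. PDK4, a pyruvate dehydrogenase kinase active in fasting, fell by 0.50 log2 units (limma adjusted p = 0.00744, 1 of 3 probe sets). PGAM2, the muscle-type phosphoglycerate mutase, rose by 0.43 (limma adjusted p = 0.0411) from a control level of 4.19, below every array's median. Of 18 other regulators of the HIF pathway none passed (median -0.06). Their log2 changes ranged from -0.43 to 0.13, with 6 above 0 and 12 below. Of 18 enzymes of the tricarboxylic acid cycle 0 rose and 2 fell (11.1%, median -0.06): SDHC, a membrane anchor of succinate dehydrogenase, by 0.76 (limma adjusted p = 0.00394, 6 of 7 probe sets), and IDH2, the mitochondrial isocitrate dehydrogenase, by 0.56 (limma adjusted p = 0.0148, both probe sets).

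Of the other hypoxia response targets 47 could be measured, of which 8 rose (17.0%, beside 3.45% of all genes) and 4 fell (8.51%, beside 5.46%), with 35 short of the threshold and a median of 0.12, and the list was drawn up with earlier results of these data known. TMEM45A, a transmembrane protein gene, read 8.36, 8.54 and 8.53 in control and 9.66, 9.76 and 9.88 in siKDM1A cells and rose by 1.29 (limma adjusted p = 0.000186). TGFA, a ligand of the EGF receptor, rose by 0.84 (limma adjusted p = 0.000804), in 2 of 3 probe sets. LOX and PLOD2, which crosslink and hydroxylate collagen, rose by 0.78 and 0.75 (limma adjusted p = 0.00267 and 0.00404), in 2 of 3 and both probe sets. TXNIP, an arrestin-like protein that restrains glucose uptake, fell by 0.87 (limma adjusted p = 0.00216), in 1 of 3 probe sets. ZNF395, CXCR4 and KDM3A, which encode a zinc finger factor, a chemokine receptor and a histone demethylase, fell by 0.46, 0.50 and 0.34 (limma adjusted p = 0.0134, 0.0243 and 0.0376), in 1 of 3, 2 of 3 and 1 of 2 probe sets. VEGFA, the angiogenic growth factor and a standard HIF target, was named after its values were seen. It rose by 0.71 from 9.79 ± 0.0999 to 10.49 ± 0.213 (SD, n = 3 each, limma adjusted p = 0.00925), in 3 of its 4 probe sets. The study's kind of test, given with the alternatives after the report, called 2 genes of this list higher and 2 lower after the same adjustment. These were TMEM45A and TGFA, and ZNF395 and KDM3A. VEGFA, LOX, PLOD2, TXNIP and CXCR4 were not among them.

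**Figure D4:**
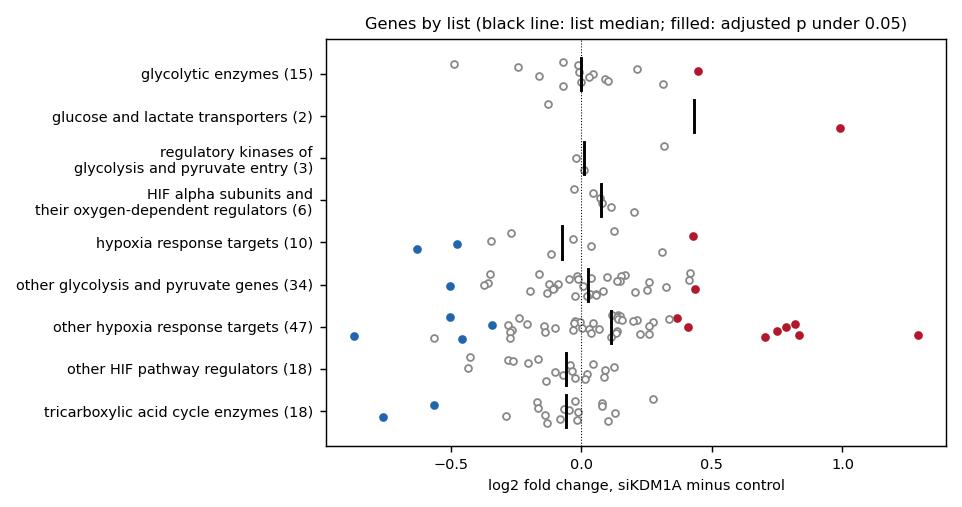
Difference in log2 value (x axis, siKDM1A minus control) of every measured gene in the 5 role groups of the set and in 4 further lists, with the number of measured genes in brackets; red and blue filled points rose or fell, open points did not pass, and black lines are group medians. Medians lie near 0 in most groups.

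The 3 arrays of a group limit the precision, and with the study's kind of test and the same adjustment over all probe sets, given with the alternatives after the report, 0 of the 36 genes passed on their brightest probe set and 1 of the 83 probe sets passed, the second one of SLC2A3. Of the 5 calls only that of SLC2A3 was kept by limma whichever array was left out (adjusted p from 0.00371 to 0.0103); HK2, BHLHE40, CA12 and NDRG1 lost theirs without certain arrays, with highest adjusted p of 0.0916, 0.101, 0.105 and 0.142.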

How the data were processed

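The authors ran RMA in the Partek Genomics Suite, with versions not given in the sources used here, on the scans of 3 siKDM1A and 3 control samples, and deposited log2 values of 54675 probe sets. RMA subtracts background, gives every array the same distribution and summarizes probes; a shift shared by most genes would mostly be lost. No detection call was made, and scanner files were not used here.

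The log2 values were compared with limma 3.58.1 in R 4.3.3, by lmFit and eBayes without a trend, as siKDM1A minus control. The test was two-sided, and p-values were adjusted by Benjamini-Hochberg over 54613 probe sets, 62 Affymetrix controls being left out, at a threshold of 0.05. The steps were tested on simulated data. In the platform annotation 41091 probe sets had 1 gene, 1801 several and 11721 none. Entrez IDs of 41037 matched RefSeq (GRCh38.p14). The genes and lists were chosen with earlier results of these data known. Named were all genes of the set that passed, the HIF regulators, and up to 4 higher and 4 lower genes per further list, by smallest p, with VEGFA as an exception; the other genes of the set are given with their values. The methods describe independent transfections. The letters a, b and c in the labels were not used to pair the samples in the main fit, and whether they mark pairs was not settled. The correlation of same-letter deviations was 0.111, 0.230 and -0.135, and that of other letters ranged from -0.317 to 0.182. The log2 difference between the 3' and 5' ACTB control probe sets, a sign of RNA quality, was 1.41 and 1.43 on the a arrays (siKDM1A and control). It was 0.72 and 0.86 on the b arrays and 0.91 and 1.22 on the c arrays. Alternatives were centring on array medians, cyclic loess, leaving out dim probe sets, limma with a trend and robust prior, the letters as a block, one-way ANOVA, leaving out each array, a fold threshold and other rules for the probe set.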

Additional observations from a re-analysis of the deposited data

How the results depend on the processing

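The main counts were 3 genes higher and 2 lower with a median log2 change of 0.021. The lower count was 0 after cyclic loess (CA12 and NDRG1 at limma adjusted p = 0.0603 and 0.0705), 4 with an intensity trend and robust prior, and 0 by one-way ANOVA on the brightest probe sets, which also gave 0 higher (7 lower and 4 higher at an unadjusted p under 0.05; adjusted p 0.0657 for SLC2A3, 0.0615 for HK2, 0.088 for BHLHE40, 0.131 for CA12 and 0.253 for NDRG1). ANOVA is the study's test, but the adjustment and threshold are those used here. Another SLC2A3 probe set passed it (ANOVA adjusted p = 0.0255). On the brightest probe sets the lowest ANOVA adjusted p was 0.0609, for P4HA2, which was lower and which limma did not call. Over all 19775 genes limma called 683 higher and 1080 lower, and ANOVA 187 and 250; of the further lists ANOVA called 0 higher and 1 lower for glycolysis and pyruvate, 2 and 2 for hypoxia targets, 0 and 1 for HIF regulators and 0 and 1 for the tricarboxylic acid cycle, where SDHC and IDH2 were lost (0.0866 and 0.122). At least 1.5-fold left 1 higher and 1 lower. The median was -0.0070 after median centring and 0.058 with the probe set of smallest p. Leaving out each array gave 1 to 3 genes higher, 0 to 2 lower and a median from -0.0051 to 0.039. By limma HK2 lost its call without control b, control c or siKDM1A a (adjusted p = 0.0713, 0.0916 and 0.0503). BHLHE40 lost it without control a, b or c or siKDM1A a or b (0.07, 0.0912, 0.101, 0.0739 and 0.0672), CA12 without control a or c or siKDM1A b or c (0.092, 0.105, 0.0725 and 0.0589) and NDRG1 without any array but siKDM1A c (0.0892 to 0.142). The mean of all probe sets lost HK2 and CA12 (0.0686 and 0.126). The replicate letters as a block gave 3 higher and 2 lower, with NDRG1 at 0.0899. The causes were not tested. HIF1A, EPAS1, VHL, EGLN1, EGLN3 and HIF1AN passed in none of the 15 settings, and SLC2A3, HK2, BHLHE40, CA12 and NDRG1 kept their direction in all of them. In several settings this was fixed in advance. ANOVA, the trend and robust prior, the block and the dim filter leave the log2 change itself as it was. Some rules for the probe set picked the same probe set again. Other genes were not run under the 15 settings beyond ANOVA. Dim probe sets near background limit what can be read of low genes.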
